A study of Homo sapiens with 33 samples.

Results

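OVCAR3 ResA and OVCAR3 ResB were 2 platinum-resistant sublines of one parental line, derived by separate rounds of cisplatin selection, and the comparison described here set the 3 RNA-sequencing libraries of ResB against the 3 of ResA, 6 of the 33 libraries in the series. The libraries were chosen by their cell line label alone, with no measured value used. The question was how far the end states of 2 selections from one parent differed. The series as a whole profiled the mRNA of 11 lines, made up of ovarian cancer lines and the cisplatin-selected or patient-matched resistant lines derived from them. Parental OVCAR3, an established high-grade serous ovarian carcinoma line, was the common ancestor and is given beside the sublines (3 libraries). Both sublines had gone through repeated short pulses of cisplatin at stepwise higher doses with recovery in between, and were afterwards kept in medium without the drug. The libraries came from cells that the labels give no drug treatment. Each subline was a selected population from 1 selection, so the comparison is between 2 lines and not between 2 ways of selecting, and no source used here says whether the 3 libraries of a line came from separate cultures. The p-values therefore measure only the spread between these libraries.

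Cisplatin forms crosslinks on DNA, and cells survive it by taking up less drug, detoxifying it with glutathione and metallothioneins, repairing the lesions or tolerating them. Resistant populations also differ in epithelial and mesenchymal gene expression and in inflammatory signalling, in which NF-kB drives cytokine genes and the interferon-regulatory and STAT factors drive antiviral genes. A selection can in addition enrich cells that carry gains, losses or silencing of particular loci.

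Levels are given in TPM, a unit scaled for transcript length and library size. A gene was called when its DESeq2 adjusted p was under 0.05 in a fit with the replicate number as a block, and log2 fold changes are ResB minus ResA with their standard error. The 6 libraries held between 18058985 and 32493449 counts. All 9 libraries of the family expressed the markers of a carcinoma of Mullerian origin: PAX8, the lineage transcription factor, lay between 127 and 217 TPM and EPCAM, an epithelial adhesion molecule, between 454 and 892 TPM. Their levels were not all equal. The keratins KRT8 (1.29 ± 0.37) and KRT18 (2.32 ± 0.42) were higher in ResB than in ResA, as were WFDC2 and MSLN, given below. PAX8, EPCAM, KRT7, CDH1 and MUC16 were not called. Of 20 markers of other cell types, 14 stayed under 1 TPM in all 6 libraries, and CD3E, NEUROD1 and STMN2 had no counts. The summed level of the 20 was 15.4 to 21.1 TPM in ResA and 23.3 to 35.3 TPM in ResB, and 3 of the 11 tested were higher in ResB: PECAM1, an endothelial adhesion molecule, at 3.83, 2.84 and 13.6 TPM against 0.0458, 0 and 0.114, and the mesothelial genes CALB2, called in 6 of 9 fits that left libraries out, and LRRN4. Their part in the results was not tested. Libraries of ResA correlated with one another at 0.961 to 0.986 across genes and those of ResB at 0.926 to 0.956, against 0.850 to 0.899 between the sublines. The share of counts on mitochondrial rRNA was 1.86, 3.79 and 5.57% in ResA and 5.97, 8.88 and 1.12% in ResB, so replicate 3 of ResB stood apart from the other libraries of its line. The means of that share, 3.74% ± 1.85 and 5.32% ± 3.92 (SD, n = 3 each), gave p = 0.6 in a two-sided exact permutation test, in which 0.1 is the smallest p that 3 against 3 allows.

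ResB differed from ResA at 2202 of 16301 genes tested (13.5%), with 1218 higher in ResB (7.47%) and 984 lower (6.04%). Each subline was also set against the same parental libraries, which the 2 comparisons share: ResA differed from the parent at 8146 of 18160 genes (44.9%, with 22% higher and 22.9% lower) and ResB at 1255 of 16352 (7.67%, with 4.1% higher and 3.57% lower). The depth and spread of the libraries differ between those fits, and whether the numbers of calls differ was not tested. The count of calls between the sublines depended on which library was present, at 781 without ResA replicate 2, 833 without ResB replicate 2 and 3812 without ResA replicate 3. The 1.5-fold limit was also passed without ResA replicate 1 (1038), ResB replicate 1 (1065) and ResB replicate 3 (3783). Calls lost when libraries were left out are given for genes named with their values, and a list's count is followed by its range over those fits where it moved most.

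The largest differences were between presence and near absence of a transcript. Of genes averaging at least 100 normalised counts in ResB, 29 had at most 3 counts in every ResA library, and 27 of these were called higher in ResB. Of the 29, 22 were above that floor in all 3 parental libraries, and 4 were at it in all 3. In the other direction 22 genes with at least that level in ResA were at the floor in every ResB library, of which 20 were called lower, 8 were above the floor in all parental libraries and 11 at it. The high level of the other subline brought these genes past the count minimum, so the counts describe the extremes of the table and carry no test. The 4 genes not called were RNU1-28P, SULT1A3, LOC102724843 and LOC102724219, named after their values were seen. RNA from whole cultures cannot tell fewer expressing cells from less RNA per cell.

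CLDN6, which encodes a tight junction claudin of embryonic and some cancer epithelia, had the largest increase. It was at 220, 237 and 229 TPM in ResB, at 0, 0 and 0.0881 TPM in ResA, and at 144, 181 and 185 TPM in the parent. ResB lay next to the parental libraries, and ResA held 0, 0 and 2 counts, apart from both. Taken against a floor of 3 counts per library, CLDN6 was at least 1749-fold higher in ResB (adjusted p = 1.94e-29), and it was called in all 9 fits that left out 1 library or 1 replicate pair. ResB and the parent gave a difference of 0.33 ± 0.34 (adjusted p = 0.753), ResA and the parent one that was called (adjusted p = 8.97e-18). The gene lies at chr16:3014712-3018183 on the minus strand (GRCh38), and GPX1, which was near absent in ResB instead, lies at chr3:49357176-49358353 on the minus strand. The 250 bases before each start, from RefSeq (GRCh38.p14, chr16:3018184-3018433 and chr3:49358354-49358603), are shown because these are the clearest near absences among genes that the parent expressed. Capitals mark CG dinucleotides, the site of DNA methylation.
CLDN6: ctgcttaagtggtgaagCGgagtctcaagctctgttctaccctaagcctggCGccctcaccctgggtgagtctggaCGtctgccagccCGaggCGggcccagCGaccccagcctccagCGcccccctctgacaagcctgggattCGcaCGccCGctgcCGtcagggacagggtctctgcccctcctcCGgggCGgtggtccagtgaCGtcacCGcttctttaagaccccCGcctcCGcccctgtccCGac
GPX1: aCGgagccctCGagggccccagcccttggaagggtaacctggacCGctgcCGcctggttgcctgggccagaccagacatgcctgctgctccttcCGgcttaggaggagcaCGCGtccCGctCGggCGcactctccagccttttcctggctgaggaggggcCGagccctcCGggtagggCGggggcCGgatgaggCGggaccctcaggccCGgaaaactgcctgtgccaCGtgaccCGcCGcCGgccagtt
CLDN6 had 18 CG dinucleotides in this stretch and GPX1 20, and 36.9% and 32.5% of the 27195 genes with a promoter in the table had as many or more. The median was 12 over these 27195 genes and 22 over the 12041 of them that were tested. Genes at the floor in ResA had a median of 8 and those at it in ResB one of 14. No methylation was analysed here, and the count of CG letters is a description of the sequence.

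Other genes were held at about the parental level by ResB and were at 0 counts in all 3 ResA libraries. CTSF, a lysosomal cysteine protease, was at 22.5, 10.1 and 36.8 TPM in ResB against 0 in ResA and 24.8, 10.4 and 11.2 TPM in the parent (at least 244-fold). The group also held G2E3, a ubiquitin ligase (at least 143-fold), and COL2A1, the fibrillar collagen of cartilage (at least 96.2-fold). ResB and parental ranges overlapped at these 3 genes, and ResA did not overlap either. SSX2 and SSX2B, cancer-testis antigens of near-identical sequence whose reads the counting may split, summed to 53.4, 51.5 and 43.6 TPM in ResB, at most 0.0828 TPM in ResA and 29.9 to 35.3 TPM in the parent. CP, ceruloplasmin, the copper-carrying ferroxidase, was at 140, 32 and 73.3 TPM in ResB, 0.152, 0.0158 and 0.048 TPM in ResA and 157, 86.2 and 88.5 TPM in the parent (10.25 ± 0.54, adjusted p = 3.67e-75).

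At other genes ResB did not stay at the parental level. TSHR, the thyrotropin receptor, was at 70.5, 17.8 and 30.5 TPM in ResB, at 0, 0 and 0.0517 TPM in ResA and at 8.38, 9.87 and 8.9 TPM in the parent, so that the parental libraries lay between the sublines (at least 444-fold between ResB and ResA, adjusted p = 5.51e-21). PI3, elafin, an elastase inhibitor of mucosal surfaces, was at 179, 204 and 72.3 TPM in ResB, 0, 0.134 and 0.39 TPM in ResA and 5.21, 12.4 and 11.3 TPM in the parent (at least 422-fold). Both were called against the parent in each subline, lower in ResA and higher in ResB. HECW1, a HECT-type ubiquitin ligase, was near absent in the parent at 0.135, 0.0624 and 0.221 TPM and reached 8.93, 7.3 and 15.1 TPM in ResB with 0 in ResA (at least 399-fold). MGP, an inhibitor of calcification of the matrix, was at 12.3, 13.8 and 10.5 TPM in ResB against 0, 0 and 0.172 TPM in ResA and at most 0.318 TPM in the parent. ZNF91, a KRAB zinc finger protein that represses retroelements, was at 4.49, 4.48 and 2.64 TPM in ResB, above the parental 1.09, 0.787 and 2.32 TPM, and at most 0.0231 TPM in ResA (at least 125-fold). LOC102724852, a locus with no position in the annotation used, was instead below the parental 45.3, 62 and 70.3 TPM in both sublines, at 15.1, 9.58 and 1.42 TPM in ResB and at most 0.0272 TPM in ResA (at least 124-fold between them), with -3.23 ± 1.12 for ResB over the parent, which did not pass (adjusted p = 0.051).

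Of the 15 largest increases, 6 were called in each of the 9 fits that left libraries out. Without ResB replicate 1 or ResB replicate 2 the call was lost for HECW1 (adjusted p = 0.0908 and 0.114) and MGP (0.146 and 0.165). CTSF lost it without each ResB library in turn (0.132, 0.142 and 0.0583), and so did G2E3 (0.171, 0.199 and 0.0778) and COL2A1 (0.218, 0.314 and 0.0806). G2E3 and COL2A1 also lost it without replicate 1 or replicate 2 of both lines. SSX2 lost it without ResB replicate 2 (0.159), ResB replicate 3 (0.0515) and replicates 1 and 2 of both (0.0624 and 0.0556), and ZNF91 and LOC102724852 without replicate 1 of both (0.114 and 0.211). All 15 kept a positive fold change in every one of these fits.

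**Figure D1:**
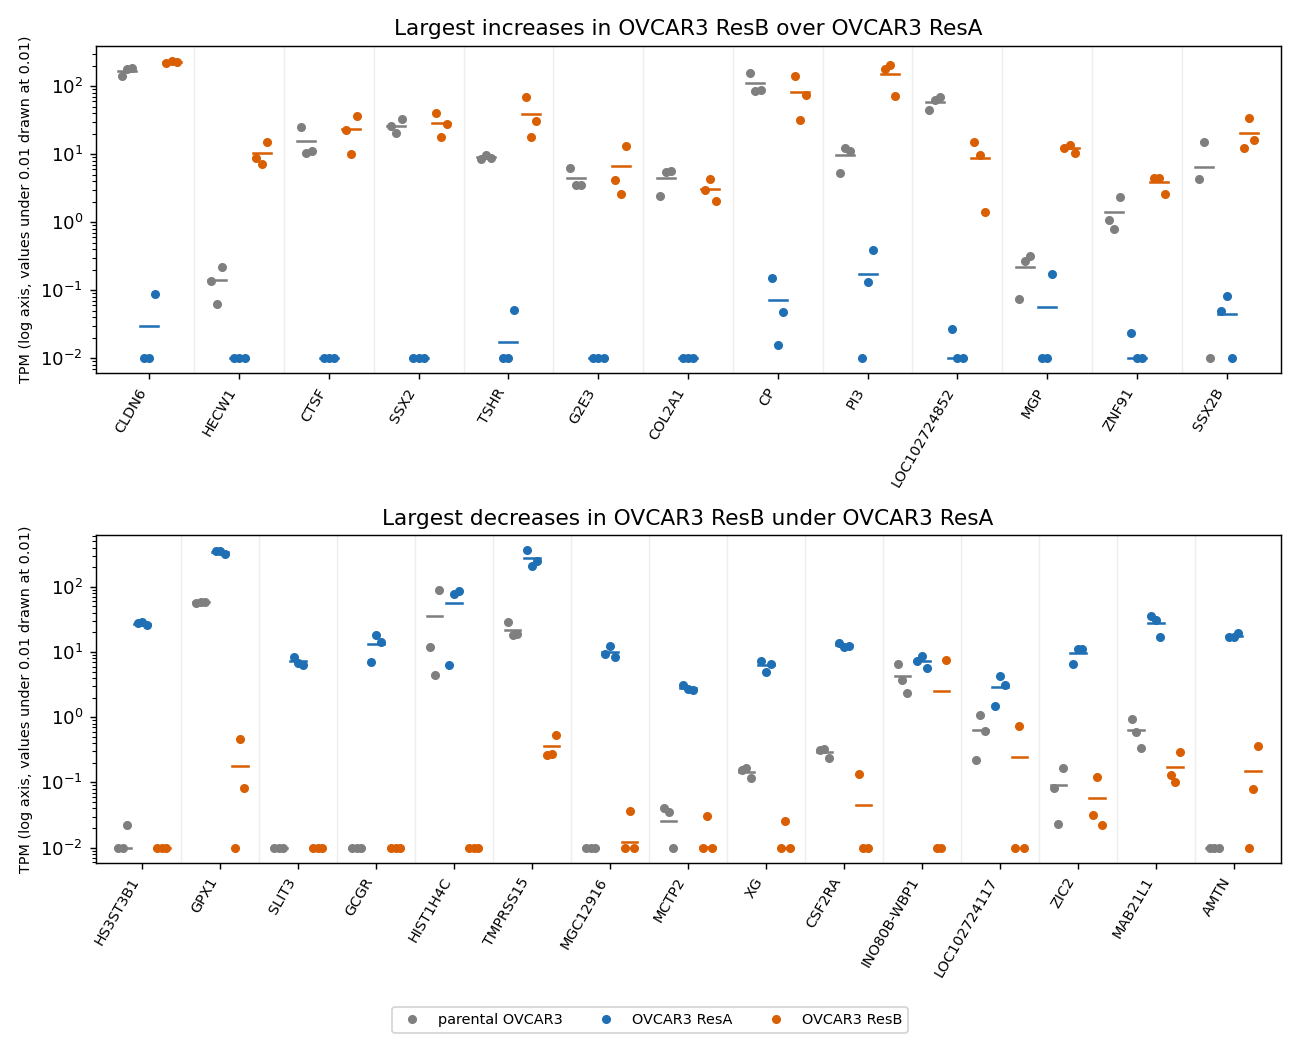
TPM (log axis, values under 0.01 drawn at 0.01) of 13 of the 15 genes with the largest increases and of the 15 with the largest decreases in OVCAR3 ResB over OVCAR3 ResA. Points are libraries (3 per line) and bars their means: at CLDN6 the ResB libraries at 220 to 237 TPM sit beside the parental ones at 144 to 185 and ResA lies at the bottom, while at GPX1 the ResA libraries at 319 to 357 TPM sit above the parental ones and ResB lies under 1 TPM.

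GPX1, the cytosolic selenoenzyme that reduces hydrogen peroxide with glutathione, went in opposite directions in the sublines. It was at 353, 357 and 319 TPM in ResA, 56.8, 59.4 and 58.6 TPM in the parent and 0, 0.461 and 0.0828 TPM in ResB. In counts, the ResB libraries held 0, 7 and 1 against 4531, 4940 and 4520 in ResA. The log2 fold change was -11.31 ± 1.37 between the sublines (adjusted p = 1.42e-14), 2.41 ± 0.11 for ResA over the parent (adjusted p = 1.30e-101) and -8.23 ± 0.75 for ResB over the parent (adjusted p = 5.56e-25), and the 3 lines did not overlap. TMPRSS15, enteropeptidase, the duodenal protease that activates trypsinogen, showed the same order, with 364, 209 and 245 TPM in ResA, 29.4, 18.3 and 18.8 TPM in the parent and 0.26, 0.274 and 0.54 TPM in ResB (-9.56 ± 0.41, adjusted p = 3.41e-118). Its fold change was the most significant of the table. Both genes were called in all 9 fits that left libraries out.

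Most of the other large decreases were gains of ResA over a silent parent rather than losses in ResB. HS3ST3B1, a 3-O-sulfotransferase that modifies heparan sulfate, was at 27.6, 29 and 25.6 TPM in ResA, 0 in each ResB library and at most 0.0226 TPM in the parent (at least 343-fold lower in ResB, adjusted p = 1.38e-21). MGC12916 lies inside the interval of HS3ST3B1 on chromosome 17, and since the strand used in counting is not stated, its 8.32 to 12.5 TPM in ResA cannot be told apart from reads of that gene. SLIT3, a secreted ligand of ROBO receptors, was at 8.38, 6.86 and 6.43 TPM in ResA and at most 0.00756 TPM in the 6 other libraries (at least 287-fold). GCGR, the glucagon receptor, was at 7.16, 18.1 and 14.4 TPM in ResA and 0 in the 6 others (at least 111-fold). The transcription factor ZIC2 (-7.40 ± 0.73), the developmental regulator MAB21L1 (-7.27 ± 0.52) and the enamel protein gene AMTN (-7.02 ± 0.80) belonged to the same pattern, at 6.5 to 36.1 TPM across the ResA libraries of the 3 genes and under 1 TPM in every parental and ResB library. CSF2RA, the alpha chain of the GM-CSF receptor, was at 14, 12 and 12.4 TPM in ResA and 0.24 to 0.322 TPM in the parent, and its neighbour in the same chromosome end, XG, at 4.87 to 7.4 TPM in ResA and 0.116 to 0.169 TPM in the parent. Both were near 0 in ResB (at least 91.5-fold and 56-fold lower).

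Of the 15 decreases, 7 were called in all 9 fits without libraries. HS3ST3B1 lost its call without ResA replicate 1 (adjusted p = 0.0911) or ResA replicate 2 (0.13), GCGR without each ResA library (0.159, 0.277 and 0.102) and each pair, and MCTP2, XG and CSF2RA in 1 fit each, without replicate 2 of both (0.122 and 0.147) and without replicate 1 of both (0.088). The remaining 3 are uncertain. HIST1H4C, whose mRNA carries no poly(A) tail, ranged from 6.35 to 87.6 TPM within ResA and was called in 2 of the 9 fits. INO80B-WBP1, a read-through transcript, was at 0, 0 and 7.68 TPM in ResB, which overlapped the 5.78 to 8.65 TPM of ResA, and LOC102724117 was called in 3 of the 9. LCMT2, a tRNA-modifying enzyme chosen after its values were seen, was lower in ResA than in the parent and absent in ResB. It was at 6.03 to 7.37 TPM in the parent and 3.91 to 4.23 TPM in ResA (-0.84 ± 0.20 for ResA over the parent, adjusted p = 9.75e-05). In counts it held 367, 301 and 244 in the parent, 182 to 207 in ResA and 0 in each ResB library. ResB was at least 47.1-fold lower than ResA (adjusted p = 6.52e-12), with the call kept in 3 of the 9 fits.

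Genes next to these loci were looked up to see how far the differences extended. The 5 nearest annotated genes on each side were taken. Over the 8 loci, 6 of 65 tested neighbours were higher and 3 lower, where 7.47% and 6.04% of all genes tested were. Calls beside these loci were thus about as frequent as elsewhere, and whether they belong to the loci was not tested. At CLDN6, CTSF, GPX1 and GCGR, 0 of 9, 9, 8 and 9 tested neighbours were called. Beside HS3ST3B1, 1 of 8 was higher and 2 lower. Of these, the related sulfotransferase gene HS3ST3A1 was lower, at 0.876, 0.918 and 0.634 TPM in ResA and 0.0376, 0.029 and 0 TPM in ResB (at least 8.33-fold, called in 6 of the 9 fits without libraries), as was ARHGAP44 (-3.27), while PMP22 was higher (2.11). STK17A beside HECW1 was higher (2.33), and beside SLIT3 PANK3 was lower (-1.31) and C5orf58 higher (4.62).

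The NF-kB, cytokine and chemokine list was higher in ResB at 14 of its 30 tested genes and lower at 0, against 7.47% and 6.04% of all genes, and its median log2 fold change was 1.28 against -0.01 for all genes tested. Over the 9 fits without libraries, 9 to 18 of its genes were higher. IL32, a proinflammatory cytokine, was at 29.2, 80.1 and 46.1 TPM in ResB, 0.499, 0.475 and 0.0731 TPM in ResA and 2.06, 3.93 and 2.49 TPM in the parent (7.27 ± 0.61, adjusted p = 7.41e-30). TNF was at 3.21, 2.88 and 8.84 TPM in ResB and at most 0.144 TPM in ResA (5.54 ± 0.77). CX3CL1, the membrane-bound chemokine fractalkine, was at 7.48, 7.55 and 15.3 TPM against 0.26, 0.106 and 0.347 TPM (5.44 ± 0.49), and ICAM1, a leukocyte adhesion molecule, at 14.1, 9.38 and 19.8 TPM against 0.524, 0.427 and 0.629 TPM (4.75 ± 0.40). In none of these did the sublines overlap, and each was called in all 9 fits. IL8, the neutrophil chemokine also called CXCL8, rose 12.3-fold (3.62 ± 0.47), and the feedback inhibitors TNFAIP3 (3.20 ± 0.40) and NFKBIA (1.48 ± 0.33) were higher too, NFKBIA with its call kept in 6 of the 9 fits (highest adjusted p = 0.12). BIRC3, an inhibitor of apoptosis and NF-kB target, was at 0.677 to 1.19 TPM in ResB and 0.377 to 0.436 TPM in ResA, without overlap, and did not pass the test (1.37 ± 0.53, adjusted p = 0.0633). IL8, TNFAIP3 and BIRC3, with the other list members beyond the 4 largest, were picked after their values were seen.

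The sublines stood on either side of the parent at part of this list. ICAM1, at 3.62, 3.54 and 3.19 TPM in the parent, differed from it by -2.86 ± 0.31 in ResA and 1.89 ± 0.35 in ResB, and IL32 by -3.31 ± 0.70 and 3.96 ± 0.39, all of them called. IL8 was lower in ResA than in the parent (-2.53 ± 0.37) and at 1.08 ± 0.38 in ResB did not pass (adjusted p = 0.0589). CSF1, the macrophage growth factor, showed no call in ResA (0.05 ± 0.38) and was higher in ResB (2.61 ± 0.40). The list's median was -0.35 for ResA over the parent and 1.07 for ResB over it.

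Promoter sequences of 4 of these genes are shown because the factor named in the list is defined by the site it binds. They are the 250 bases before the RefSeq start (GRCh38.p14) of CXCL8 at chr4:73740319-73740568, TNFAIP3 at chr6:137867009-137867258, ICAM1 at chr19:10270870-10271119 and IL32 at chr16:3065153-3065402, all on the plus strand. Capitals mark matches to an NF-kB core, GGNNNTTCC, on either strand.
CXCL8: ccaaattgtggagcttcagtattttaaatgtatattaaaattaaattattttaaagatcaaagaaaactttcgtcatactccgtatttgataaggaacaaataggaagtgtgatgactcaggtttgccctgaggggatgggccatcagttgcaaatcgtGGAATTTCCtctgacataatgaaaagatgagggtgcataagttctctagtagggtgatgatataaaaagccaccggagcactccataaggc
TNFAIP3: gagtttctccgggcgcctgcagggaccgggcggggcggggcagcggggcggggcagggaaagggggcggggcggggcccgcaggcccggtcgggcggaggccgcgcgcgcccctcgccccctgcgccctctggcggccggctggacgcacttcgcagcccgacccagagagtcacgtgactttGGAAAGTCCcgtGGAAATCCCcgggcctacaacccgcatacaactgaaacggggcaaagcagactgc
ICAM1: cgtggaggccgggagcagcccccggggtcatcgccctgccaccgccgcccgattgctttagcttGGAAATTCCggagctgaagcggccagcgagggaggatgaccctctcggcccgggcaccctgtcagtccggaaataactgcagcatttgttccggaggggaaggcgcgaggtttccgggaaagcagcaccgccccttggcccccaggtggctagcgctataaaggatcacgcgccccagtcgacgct
IL32: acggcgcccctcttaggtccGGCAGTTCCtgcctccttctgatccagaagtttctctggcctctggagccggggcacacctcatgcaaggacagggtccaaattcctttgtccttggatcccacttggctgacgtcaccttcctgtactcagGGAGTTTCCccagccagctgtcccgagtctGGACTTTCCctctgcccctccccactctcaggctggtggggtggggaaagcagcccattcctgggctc
CXCL8 and ICAM1 held 1 match each, TNFAIP3 2 and IL32 3. The core was present in 20.2% of all 27195 genes with a promoter and in 24.8% of the 12041 of them that were tested. It was present in 9 of the 11 called members of the list with a promoter (81.8%) and in 8 of the 11 members that were not called (72.7%). Whether each member of the list is a target of the factor was not tested. TNF had no match in this stretch, and CX3CL1 has no entry.

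Interferon-stimulated genes were higher in ResB at 19 of 45 tested and lower at 2 (median 1.03), and 8 to 25 were higher over the fits without libraries. OAS1 and OAS3, synthases of the 2-5A signal that activates RNase L, were at 15.7, 7.92 and 7.27 TPM and at 11.2, 5.19 and 12.1 TPM in ResB, against at most 0.569 and 0.6 TPM in ResA (5.18 ± 0.60 and 4.32 ± 0.38). GBP1, an interferon-induced GTPase, was at 71.7, 41.9 and 65.1 TPM in ResB, 3.94, 4.44 and 5.01 TPM in ResA and 16.2, 13.6 and 18.1 TPM in the parent (3.73 ± 0.35, adjusted p = 1.04e-24). IFI27 was at 97.6, 83.7 and 54.3 TPM in ResB, and its ResA and parental libraries overlapped at 4.07 to 11.2 and 8.41 to 9.61 TPM. IRF7, the factor that amplifies type I interferon transcription, had 0 TPM in all ResA libraries and 4.41, 7.25 and 3.9 TPM in ResB (at least 62.6-fold), near the parental 2.74 to 4.42 TPM. Its call was lost without each ResB library (adjusted p = 0.258, 0.376 and 0.106) and without replicate 1 (0.163) or 2 (0.213) of both lines. The list did not move as one. IFI16, a nuclear DNA sensor, went the other way, at 2.38, 2.52 and 3.29 TPM in ResA and 0.588, 0.114 and 0 TPM in ResB (-4.30 ± 0.85, adjusted p = 1.17e-05), and so did MX2, a restriction factor for viruses, whose call was lost in all 9 fits (highest adjusted p = 0.35). EPSTI1, at 12, 7.94 and 7.26 TPM in the parent, was below it in both sublines (-4.79 ± 0.27 in ResA and -1.63 ± 0.40 in ResB) and higher in ResB than in ResA. GBP1, IFI27, MX2 and EPSTI1 were picked after their values were seen.

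The stretches before the starts of GBP1 (chr1:89065209-89065458, minus strand), BST2 (chr19:17405631-17405880, minus) and OAS3 (chr12:112938224-112938473, plus; GRCh38.p14) are given for the site that interferon-activated factors bind. Capitals mark an interferon-stimulated response element core, GAAA followed after any 2 bases by GAAA, on either strand, and overlapping matches are joined.
GBP1: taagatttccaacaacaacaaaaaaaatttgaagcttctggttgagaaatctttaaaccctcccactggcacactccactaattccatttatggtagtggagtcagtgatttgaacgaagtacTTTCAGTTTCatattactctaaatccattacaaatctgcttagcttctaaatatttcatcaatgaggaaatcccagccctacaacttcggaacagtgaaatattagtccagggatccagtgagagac
BST2: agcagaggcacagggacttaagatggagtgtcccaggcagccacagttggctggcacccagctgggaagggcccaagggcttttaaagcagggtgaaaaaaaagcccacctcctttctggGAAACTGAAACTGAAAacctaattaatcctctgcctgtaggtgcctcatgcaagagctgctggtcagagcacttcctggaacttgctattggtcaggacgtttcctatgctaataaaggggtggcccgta
OAS3: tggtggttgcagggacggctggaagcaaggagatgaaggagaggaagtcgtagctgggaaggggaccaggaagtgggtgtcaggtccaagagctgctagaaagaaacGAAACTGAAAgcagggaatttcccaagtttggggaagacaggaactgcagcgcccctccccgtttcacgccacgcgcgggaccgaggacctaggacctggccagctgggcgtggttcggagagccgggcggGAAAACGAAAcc
GBP1 held 1 match, and BST2 and OAS3 2 each, which overlap in BST2. BST2, tetherin, was at 16.6, 5.46 and 5.6 TPM in ResB and 0.811, 0.252 and 0.493 TPM in ResA (4.12 ± 0.63). Of all genes with a promoter 3.72% held the core, of the called-higher members 11 of 14 (78.6%) and of the members not called 13 of 20 (65%). OAS1 had no match, and IRF7 and OAS2 have no entry.

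**Figure D2:**
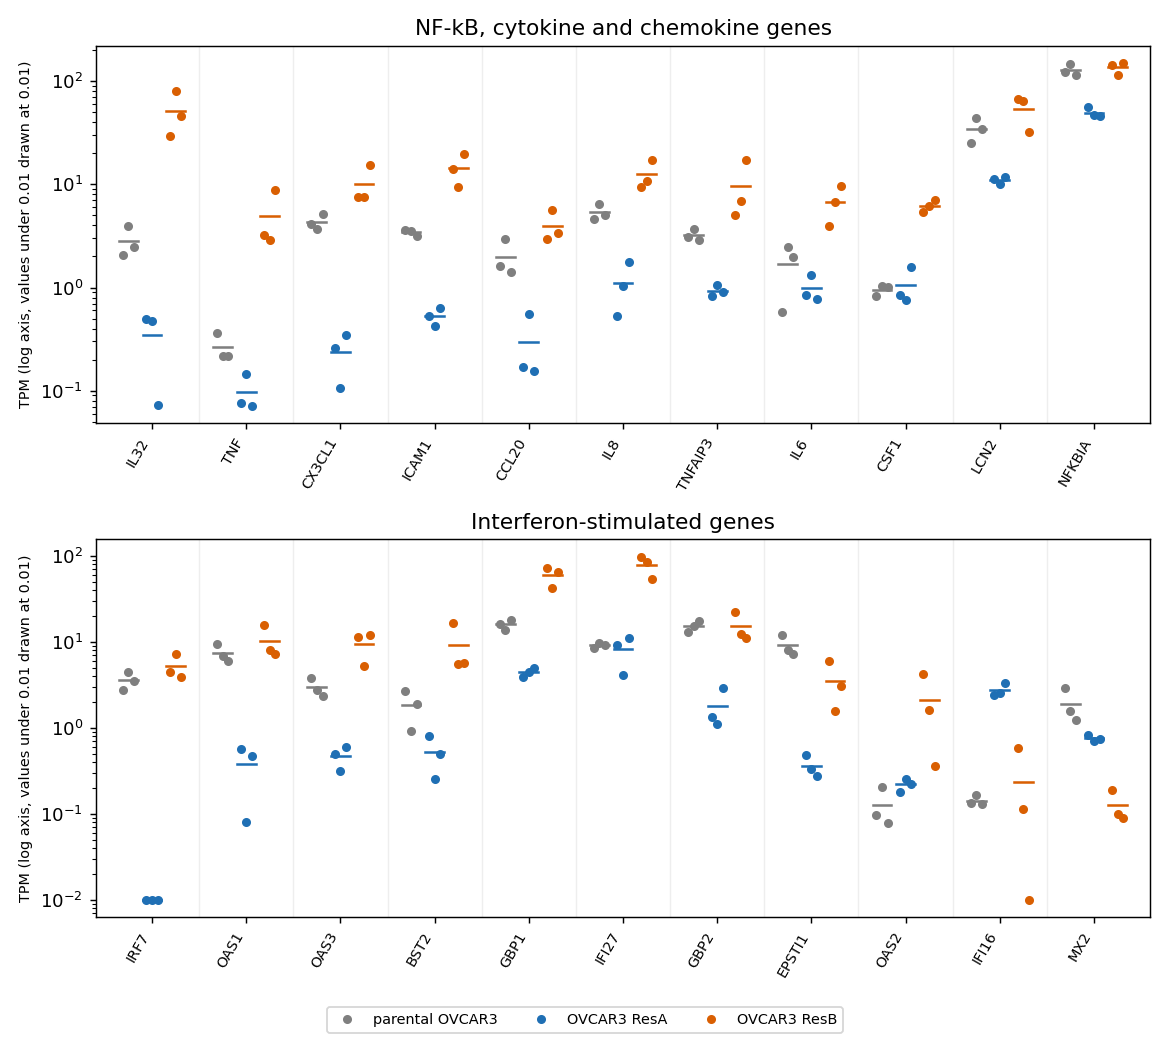
TPM (log axis, values under 0.01 drawn at 0.01) of 11 NF-kB, cytokine and chemokine genes and 11 interferon-stimulated genes in the 9 OVCAR3 libraries, with bars at the mean of each line. ResB lies above ResA without overlap at all genes drawn except IFI16 and MX2, where it lies below, and parental ICAM1 at 3.19 to 3.62 TPM lies between the sublines.

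Of 25 antigen presentation genes 7 were higher in ResB and 0 lower (median 0.37), and 6 of the 7 belonged to the class II pathway. HLA-DRA was at 37.4, 17.6 and 10.6 TPM in ResB, 0.155, 0.0485 and 0.38 TPM in ResA and 4.16, 4.44 and 1.75 TPM in the parent (6.81 ± 0.73, adjusted p = 1.20e-18). HLA-DPA1 was at 9.89, 2.73 and 2.68 TPM against at most 0.19 TPM (6.38 ± 0.88). CD74, the invariant chain that escorts class II molecules, was at 265, 271 and 183 TPM against 27.4, 40.1 and 42.1 TPM (2.75 ± 0.40). HLA-DMB, the peptide exchange factor, was above the parental 0.212 to 0.517 TPM in both sublines, at 1.6 to 3.47 TPM in ResA and 8.44 to 20.2 TPM in ResB (2.65 ± 0.42). The seventh was CALR, a chaperone of the endoplasmic reticulum (1.16 ± 0.33, called in 3 of the 9 fits without libraries), and over those fits 4 to 10 genes of the list were higher. Of the class I genes, the sublines overlapped at HLA-B and B2M, with HLA-B at 0.47 ± 0.33 (adjusted p = 0.418) and B2M at 0.44 ± 0.33 (adjusted p = 0.468).

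EMT factors and mesenchymal genes were higher in ResB at 11 of 22 tested and lower at 1 (median 1.76, with 8 to 14 higher over the fits without libraries). VCAN, the matrix proteoglycan versican, was at 15.1, 13.9 and 15.2 TPM in ResB, 0.0698, 0.111 and 0.136 TPM in ResA and 1.75, 1.95 and 2.4 TPM in the parent (7.34 ± 0.43, adjusted p = 2.02e-61). MMP2, a gelatinase, was at 9.32, 11.5 and 23.5 TPM against 0.592, 0.375 and 0.352 TPM (5.04 ± 0.44). Each of these was above the parent in ResB and below it in ResA, with all 4 parental contrasts called. FN1, fibronectin, was at 5.86, 9.93 and 54.1 TPM in ResB and 1.69, 1.35 and 1.24 TPM in ResA (3.41 ± 0.49), and its parental libraries at 3.94 to 10.6 TPM overlapped ResB. MYL9, a myosin light chain of contractile cells, was below the parental 42.5 to 61.9 TPM in both sublines, at 10.8, 15 and 6.5 TPM in ResB and 0.671, 2.1 and 1.7 TPM in ResA (2.95 ± 0.56). All 4 were called in the 9 fits without libraries. CDH1, E-cadherin, did not separate the sublines (62.4 to 85.4 TPM in ResA, 34.3 to 106 in ResB, -0.17 ± 0.34, adjusted p = 0.84). In the epithelial list of 28 genes 2 were higher (7.14%) and 4 lower (14.3%), against 7.47% and 6.04% of all genes tested. CD24, a mucin-like surface protein, was higher (1.90 ± 0.36), and SPINT2, a serine protease inhibitor, was lower at 638, 465 and 920 TPM against 2219, 2060 and 1791 TPM (-1.60 ± 0.32), together with EHF, an epithelial ETS factor (-1.97 ± 0.33). MUC1 was higher (1.91 ± 0.41) except in the fits without replicate 1 of ResA (adjusted p = 0.0596), of ResB (0.0783) or of both (0.0804).

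Among 13 keratins, the intermediate filaments of epithelia, 6 were higher and 4 lower. KRT81, a hair keratin, reached 546, 1025 and 896 TPM in ResB against 2.18, 2.53 and 3.39 TPM in ResA and 1.06, 1.07 and 1.21 TPM in the parent (8.25 ± 0.38, adjusted p = 2.96e-100). KRT86 is nearly identical to it, and the sum of both was 549, 1027 and 900 TPM in ResB and 2.51 to 3.62 TPM in ResA, with the same separation. KRT5, a basal keratin, went the other way, at 74.3, 79.2 and 179 TPM in ResA, 7.84, 6.69 and 9.67 TPM in ResB and 0.433 to 0.737 TPM in the parent (-3.64 ± 0.40), so both sublines were above the parent and ResA further above it. KRT6A followed with 10.2, 3.95 and 14.8 TPM in ResA and at most 0.541 TPM in ResB (-4.40 ± 0.55). Claudins other than CLDN6 also differed: CLDN3 was at 296, 171 and 102 TPM in ResB and 8.32, 12.8 and 15 TPM in ResA (3.94 ± 0.48), CLDN1 rose 5.48-fold (2.45 ± 0.38) and CLDN10 was lower (-2.50 ± 0.45). Of 20 claudin and tight junction genes tested, 3 were higher (15%) and 2 lower (10%), against 7.47% and 6.04% of all genes tested.

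Markers of Mullerian and ovarian carcinoma differed in both directions, with 9 of 32 higher (28.1%) and 4 lower (12.5%) in ResB (median 0.42). Of all genes tested 7.47% were higher and 6.04% lower. SLPI, a secreted protease inhibitor, was at 1491, 1779 and 1106 TPM in ResB, 80.7, 46.2 and 83.1 TPM in ResA and 824, 996 and 759 TPM in the parent (4.45 ± 0.44, adjusted p = 4.74e-22). MSLN, mesothelin, the partner of CA125, was at 36.4, 48.1 and 47.7 TPM against 2.17, 4.05 and 3.74 TPM, with 31.9 to 44.6 TPM in the parent (3.79 ± 0.37). WFDC2, which encodes the serum marker HE4 and was picked after its values were seen, was at 552, 966 and 603 TPM against 38.9, 69.4 and 87.9 TPM, with 505 to 817 TPM in the parent (3.54 ± 0.42). At these 3 genes ResA was called lower than the parent and ResB was not called against it. FOXJ1, the master factor of ciliated tubal cells, was the reverse, at 24.8, 33.3 and 30.6 TPM in ResA, 6.32, 1.41 and 0.898 TPM in ResB and 1.64 to 2.83 TPM in the parent (-3.86 ± 0.54, adjusted p = 6.06e-11). Of 39 cancer-testis antigens 31 had no adjusted p and 8 were tested, 4 of them higher (50%) and 2 lower (25%). SSX2 and SSX1 had at most 3 counts in each ResA library, so their level in ResB brought them past the count minimum. The shares of this list are a description and carry no test. LIN28B, an RNA-binding repressor of let-7, was lower in ResB at 0.0692, 0.0389 and 0.012 TPM against 3.21 to 4.8 TPM in ResA and 1.93 to 2.79 TPM in the parent (-6.67 ± 0.70).

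**Figure D3:**
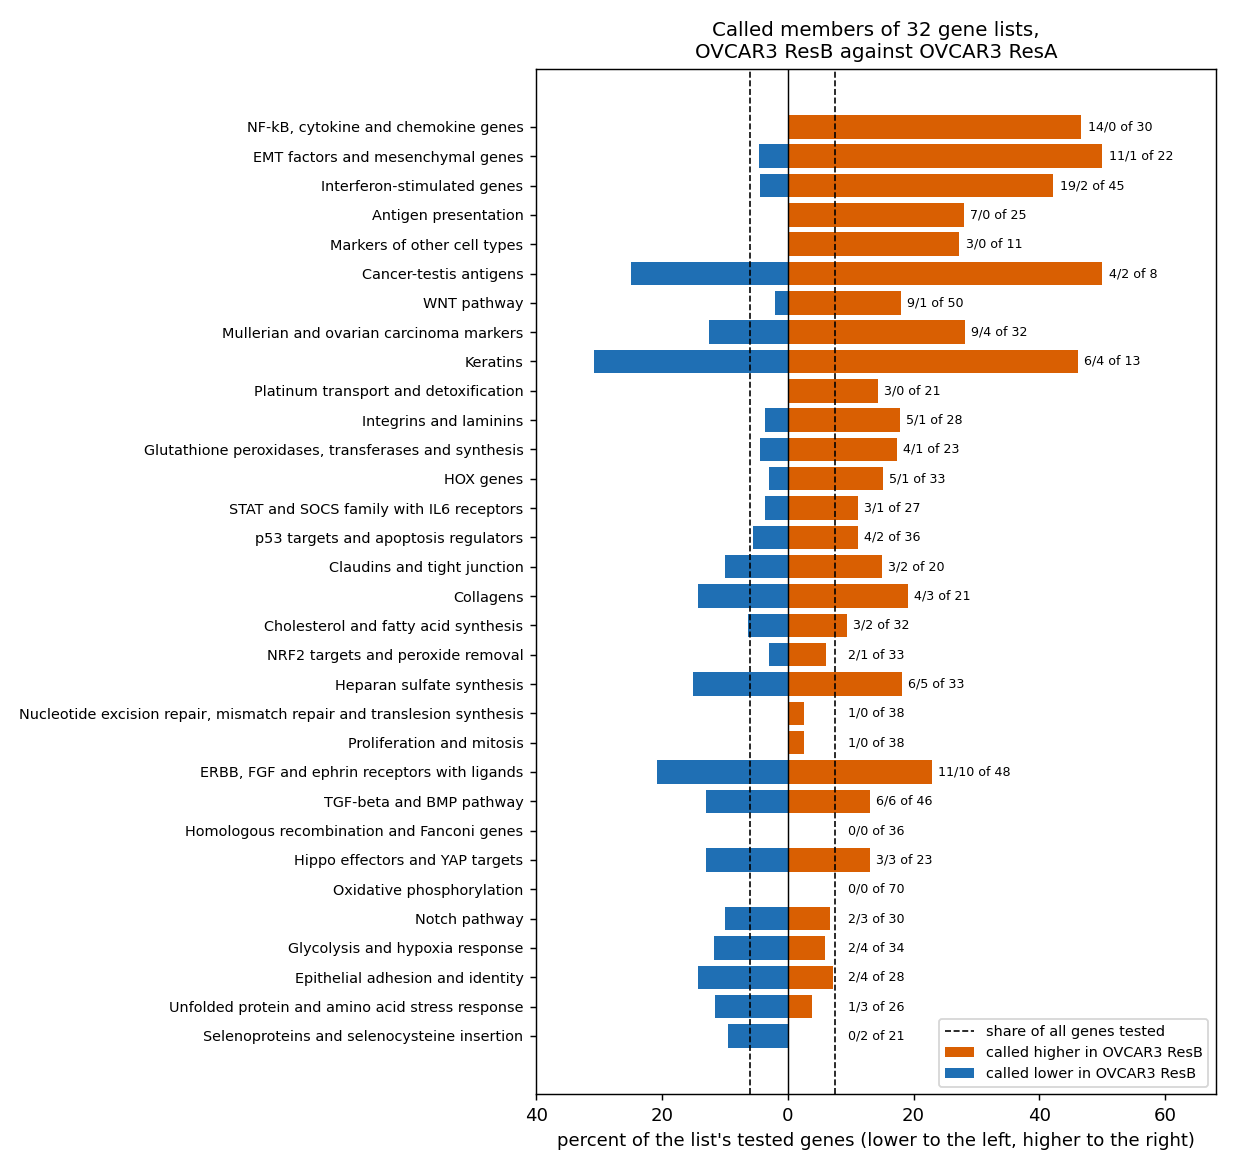
Percent of the tested genes of each of 32 lists called higher (right) or lower (left) in OVCAR3 ResB than in OVCAR3 ResA, with the counts printed as higher/lower of tested. Dashed lines mark the shares over all 16301 genes tested, 7.47% higher and 6.04% lower, and the NF-kB list at 14/0 of 30 lies far to the right while homologous recombination and oxidative phosphorylation have no called gene.

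Of 21 tested genes of platinum transport and detoxification 3 were higher in ResB (14.3%) and 0 lower, against 7.47% and 6.04% of all genes tested. Of these calls, those of MT2A and LRRC8C depended on which libraries were present. ABCC3, an efflux pump for conjugates, was at 6.06, 9.64 and 17.6 TPM in ResB, 2.42, 2.65 and 2.49 TPM in ResA and 0.744 to 1.12 TPM in the parent (2.24 ± 0.36, adjusted p = 3.87e-08), higher than the parent in both sublines. MT2A, a metallothionein that binds metals through thiols, was at 241, 598 and 125 TPM in ResB and 34.1, 95.5 and 130 TPM in ResA, which overlap, and its call (2.01 ± 0.56) was kept in 3 of the 9 fits, those without a replicate 3 library. LRRC8C, a subunit of the volume-regulated anion channel, lost its call in all 9. Copper transporters that have been tied to platinum uptake and export were not called: SLC31A1 gave -0.67 ± 0.41 (adjusted p = 0.326), ATP7A -0.50 ± 0.43 (0.533) and ATP7B -0.59 ± 0.45 (0.477).

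The glutathione list had 4 of 23 genes higher (17.4%) and GPX1 alone lower (4.35%), against 7.47% and 6.04% of all genes tested. GPX3, the secreted peroxidase, was at 97.5, 59.3 and 119 TPM in ResB, 20.2, 19.4 and 16.6 TPM in ResA and 29.4 to 30.9 TPM in the parent (2.27 ± 0.33, adjusted p = 5.82e-10), the opposite direction to GPX1. GPX4, the lipid peroxidase, was at 609 to 664 TPM in ResB and 386 to 448 TPM in ResA and did not pass the test (0.61 ± 0.35, adjusted p = 0.284). GSTM4, a glutathione transferase, was higher (3.08 ± 0.51). GSTP1, the abundant platinum-conjugating transferase, was at 405 to 598 TPM in ResB and 224 to 285 TPM in ResA (1.06 ± 0.34, adjusted p = 0.0157), with its call kept in 3 of the 9 fits, those without a replicate 3 library. The list of selenoproteins and selenocysteine insertion genes, which held neither GPX1 nor GPX3, was lower at 2 of 21 (9.52%) and higher at 0. The 2 were SEPW1 (-1.25 ± 0.34) and C11orf31, now SELENOH (-1.05 ± 0.33), both kept in the same 3 fits. NQO1, the quinone reductase induced by NRF2, was at 310, 320 and 298 TPM in ResA, 76.1, 81.9 and 122 TPM in ResB and 62.4 to 83.3 TPM in the parent (-1.73 ± 0.32, adjusted p = 2.32e-06), while the NRF2 list as a whole had 2 of 33 higher and 1 lower.

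DNA repair genes were nearly without calls, where 7.47% of all genes tested were higher and 6.04% lower. In the list of homologous recombination and Fanconi genes 0 of 36 were called (median -0.09), with 0 higher and 0 to 5 lower over the 9 fits without libraries, and BRCA1 (0.53 ± 0.47, adjusted p = 0.558) and BRCA2 (-0.53 ± 0.45, adjusted p = 0.54) overlapped between the sublines. Of 38 genes of nucleotide excision repair, mismatch repair and translesion synthesis PARP1, a sensor of strand breaks, was the single call, at 83, 112 and 186 TPM against 56.8, 47.4 and 44.4 TPM (1.32 ± 0.35, adjusted p = 0.00262). It was lost without replicate 2 of ResA (0.313), of ResB (0.273) or of both (0.288). edgeR, which called fewer genes in all (1419), called 0 of the 36 recombination genes as well. A fit with the share of mitochondrial rRNA in place of the block called 3 of them higher and 5 lower. The absence of calls does not show that the sublines had equal levels. Of 36 p53 targets and apoptosis regulators 4 were higher (11.1%) and 2 lower (5.56%), near the shares over all genes tested. Over the fits without libraries 1 to 5 were higher and 1 to 8 lower. CDKN1A, the cell cycle inhibitor p21, was at 30, 18.2 and 21.8 TPM in ResA, 5.96, 2.71 and 5.71 TPM in ResB and 1.42 to 3.95 TPM in the parent (-2.31 ± 0.36, adjusted p = 6.11e-09), and FAS, a death receptor, at 13.6, 9.6 and 21.7 TPM in ResB against 3.29 to 4.48 TPM in ResA (1.95 ± 0.38). In the proliferation list 1 of 38 was called, CDKN2B, an inhibitor of CDK4 and CDK6 (1.56 ± 0.35, with adjusted p = 0.0506 without ResA replicate 2), and MKI67 overlapped (0.60 ± 0.36, adjusted p = 0.319).

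Signalling lists held calls in both directions, where 7.47% of all genes tested were higher and 6.04% lower. The WNT list leaned to higher levels in ResB (18% higher and 2% lower), and the TGF-beta and BMP list had 13.0% in each direction. In the WNT list 9 of 50 were higher and 1 lower (median 0.32). AXIN2, a feedback target of beta-catenin, was at 2.63, 1.46 and 3.98 TPM in ResB, 0.31, 0.437 and 0.457 TPM in ResA and 1.84 to 2.48 TPM in the parent (2.68 ± 0.50), and DKK2, a secreted modulator of the pathway, rose 15.3-fold (3.93 ± 0.58). NOTUM, which inactivates WNT ligands, was lower, at 7.03, 14.1 and 9.41 TPM in ResA against 1.6, 2.83 and 3.34 TPM in ResB (-1.95 ± 0.40, adjusted p = 0.0573 without ResA replicate 2). TGF-beta and BMP genes split 6 higher to 6 lower of 46. TGFB2, a ligand, was at 4.99, 4.08 and 11.8 TPM in ResB, 0.166, 0.181 and 0.18 TPM in ResA and 18.3 to 20.9 TPM in the parent (5.18 ± 0.44, adjusted p = 1.10e-29), and the antagonists FST (4.53 ± 0.45) and NOG (2.17 ± 0.41) were higher with it. ID2, a BMP target, was lower at 63.2, 117 and 99.7 TPM against 294, 386 and 376 TPM (-1.92 ± 0.35). At TGFB2 and FST both sublines were called lower than the parent, and ResA lay further below it.

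Receptor tyrosine kinase genes with their ligands gave 11 higher and 10 lower of 48 (22.9% and 20.8%, against 7.47% and 6.04% of all genes tested). ERBB4, a neuregulin receptor, was at 2.09, 0.996 and 2.21 TPM in ResB and 0.0935, 0.0587 and 0.0695 TPM in ResA, both under the parental 6.3 to 9.45 TPM (4.57 ± 0.46). FGF9, a secreted growth factor, was higher (5.34 ± 0.59), as was IGFBP4, an IGF-binding protein, at 99, 84.4 and 104 TPM against 15.3, 19.9 and 15.9 TPM (2.53 ± 0.33). IGF1R, the IGF-1 receptor, was lower in ResB at 0.891, 0.408 and 1.93 TPM against 8, 6.57 and 6.78 TPM in ResA, while the parent was at 0.468 to 0.535 TPM (-2.96 ± 0.39, adjusted p = 2.18e-12). Of 27 STAT, SOCS and IL6 receptor genes 3 were higher and 1 lower. OSMR, the oncostatin M receptor, was at 12.2, 8.47 and 27 TPM in ResB and 3.1 to 3.65 TPM in ResA (2.24 ± 0.40), whereas STAT3 itself gave 0.12 ± 0.37 (adjusted p = 0.902). IL6R was lower (-1.21 ± 0.39), kept in 3 of the 9 fits, and the call of JAK1, whose sublines overlapped, was lost in all 9. In the Notch list 2 of 30 were higher and 3 lower, with LFNG, a glycosyltransferase that tunes Notch receptors, higher (2.81 ± 0.43) and the ligand JAG2 lower at 6.89, 9.53 and 12.9 TPM against 23.7, 30.4 and 26.4 TPM (-1.47 ± 0.33, adjusted p = 0.0529 without ResA replicate 2 and 0.0506 without replicate 2 of both). Of 23 Hippo genes 3 were higher and 3 lower, and over the fits without libraries 1 to 4 were higher and 0 to 7 lower.

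Matrix, adhesion and HOX lists also held calls in both directions, where 7.47% of all genes tested were higher and 6.04% lower. In the fit with all 6 libraries the share called higher was above that background in each of these lists. The share called lower was above it for collagens and heparan sulfate genes. It was below it for integrins and laminins and for HOX genes. Of 21 collagens 4 were higher and 3 lower: COL16A1 was higher (4.59 ± 0.50), and COL5A2, a fibril-regulating collagen, was at 1.16, 0.737 and 1.3 TPM in ResB, 28.1, 15.8 and 22.1 TPM in ResA and 10.6 to 13.7 TPM in the parent (-4.35 ± 0.35, adjusted p = 5.73e-33). Of 28 integrins and laminins 5 were higher and 1 lower. LAMA4, a vascular laminin chain, was at 10, 5.26 and 11.2 TPM in ResA and at most 0.286 TPM in ResB (-5.38 ± 0.49). ITGB3 was higher (2.54 ± 0.66), with 0.775, 0.935 and 8 TPM in ResB against 0.183 to 0.524 TPM in ResA, and lost its call without ResB replicate 3 or replicate 3 of both (adjusted p = 0.187 in each). Heparan sulfate genes split 6 to 5 of 33, with SULF2, an extracellular 6-O-sulfatase, higher at 10.6, 14.5 and 29.4 TPM against 2.71 to 3.73 TPM (2.48 ± 0.36), opposite in direction to HS3ST3B1. HOX genes were higher at 5 of 33 and lower at 1, with HOXA10, a patterning factor of the uterus, at 5.25, 6.13 and 4.95 TPM in ResB and 0.227, 0.734 and 0.87 TPM in ResA (3.35 ± 0.56). Over the fits without libraries 1 to 10 HOX genes were higher, and the calls of HOXA9, HOXB2 and HOXC10 were kept in 6, 3 and 3 of the 9. In the heparan sulfate list 2 to 5 were higher and 0 to 9 lower, with NDST3 kept in 3 and HPSE in 1 of the fits, and among collagens 1 to 5 were higher and 2 to 4 lower.

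The metabolic and stress lists are set beside the 7.47% higher and 6.04% lower of all genes tested. Oxidative phosphorylation alone among them was without calls. Shares were 9.38% higher and 6.25% lower for cholesterol and fatty acid synthesis and 5.88% and 11.8% for glycolysis and hypoxia. The unfolded protein and amino acid stress list had 3.85% and 11.5%. Oxidative phosphorylation had 0 of 70 called (median -0.20), with 0 by edgeR and up to 12 higher and 8 lower in the fits without a replicate 3 library. The fit with the share of mitochondrial rRNA in place of the block called 5 higher and 12 lower. Cholesterol and fatty acid synthesis had 3 of 32 higher and 2 lower, and 1 to 5 higher and 0 to 6 lower over the fits without libraries. Glycolysis and hypoxia genes were higher at 2 of 34 and lower at 4, with 0 to 11 lower over those fits. EGLN3, an oxygen-sensing hydroxylase, was at 39.8, 37.2 and 90.7 TPM in ResB, 4.55, 4.23 and 2.75 TPM in ResA and 33.3 to 54.2 TPM in the parent (3.78 ± 0.39, adjusted p = 4.25e-20), and CA12, a surface carbonic anhydrase, rose 13.5-fold (3.75 ± 0.50). The unfolded protein and amino acid stress list had 1 of 26 higher and 3 lower. SLC7A5 and SLC3A2, the 2 chains of a neutral amino acid exchanger, were at 541 to 584 TPM and 377 to 470 TPM in ResA against 193 to 365 TPM and 180 to 277 TPM in ResB (-1.15 ± 0.32 and -0.92 ± 0.32), with both calls kept in the 3 fits without a replicate 3 library.

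Differences also ran along chromosomes. Of 12274 genes with a position and a mean normalised count of at least 50, 13.9% were called (7.63% higher and 6.24% lower), and they were cut into 235 consecutive windows of 50. The window medians had an SD of 0.347 on the log2 scale, with 22 above 0.5 and 23 below -0.5, and the 45 past that limit kept their sign under every alternative processing that was run. Chromosome 7 had a median of 0.47 over 581 genes, with 93 higher and 9 lower, 7 of its 11 windows above 0.5 and medians of -0.35 for ResA and 0.13 for ResB over the parent. Chromosome 4 (-0.42, 20 higher and 68 lower of 462), chromosome 6 (-0.37, 23 and 73 of 616), chromosome 9 (-0.30, 33 and 67 of 506) and chromosome 19 (-0.23, 38 and 117 of 856) leaned the other way. Others, chromosome 22 among them (0.21, 48 and 6 of 293), leaned to higher levels like chromosome 7. Copy number was not analysed here, and what moved these windows was not tested. All windows, and the genes named from them, were chosen after their values were seen.

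**Figure D4:**
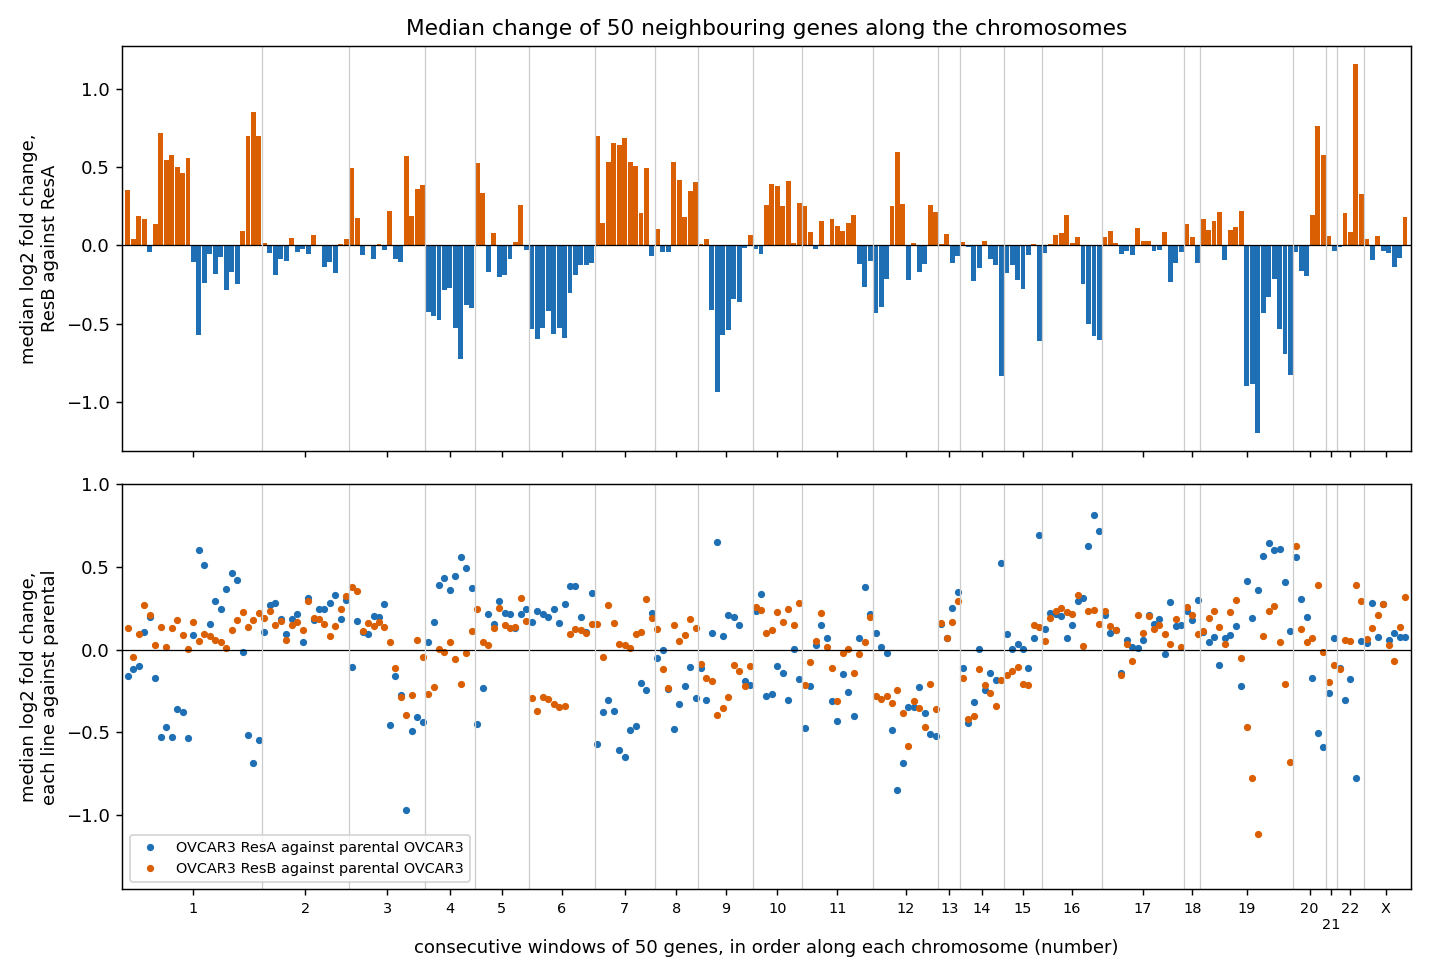
Upper panel, median log2 fold change of OVCAR3 ResB over OVCAR3 ResA in 235 windows of 50 neighbouring genes along the chromosomes (orange above 0, blue below). Lower panel, the same medians for each subline over parental OVCAR3, which share the parental libraries: the lowest upper bar, -1.20 on chromosome 19, goes with -1.12 in ResB, and the highest, 1.16 on chromosome 22, with -0.78 in ResA.

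The lowest window lay at 38.9 to 41.4 Mb of chromosome 19, with 30 of 50 genes lower, 1 higher and a median of -1.20 (0.36 for ResA and -1.12 for ResB over the parent). It began with a stretch of 32 expressed genes from SARS2 to SERTAD3, from 38915266 to 40444335 on chromosome 19, of which 29 were called lower. The median TPM over the 32 genes was 40.1, 47.5 and 60.8 in ResB, 116, 142 and 126 in ResA and 85.1, 88.6 and 104 in the parent, so ResB lay below both. The 10 genes after it had a median of -0.72 with 1 called lower and 0.05 for ResB over the parent, and the 10 genes before it one of -0.82 with 4 lower and -0.87 for ResB over the parent, so that on the side of the centromere the lower level in ResB went on past the stretch. Within the stretch AKT2, a survival kinase, was at 72.3, 58 and 128 TPM in ResB, 307, 231 and 200 TPM in ResA and 222, 160 and 167 TPM in the parent (-1.49 ± 0.33, adjusted p = 0.000161, kept in 5 of the 9 fits without libraries). RPS16, a ribosomal protein gene, gave -1.37 ± 0.39, PAK4, a kinase of the cytoskeleton, -1.34 ± 0.33, PSMC4, a proteasome ATPase, -1.32 ± 0.33 and SERTAD1, a transcriptional cofactor, -3.31 ± 0.34. The call was kept in 6 of the 9 fits for RPS16 and PSMC4, in 3 for PAK4 and in 9 for SERTAD1. Of the 3 genes not called lower, PAPL gave -1.23 ± 0.52 (adjusted p = 0.0987) and NCCRP1 0.11 ± 0.42 (adjusted p = 0.924), and the third was called higher: LGALS14, a placental galectin, was at 44.8, 68.7 and 62.1 TPM in ResB and at most 0.347 TPM in ResA (8.56 ± 0.73). CCNE1, cyclin E1, which lies nearer the centromere on the same arm, gave -0.41 ± 0.35 (adjusted p = 0.527).

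**Figure D5:**
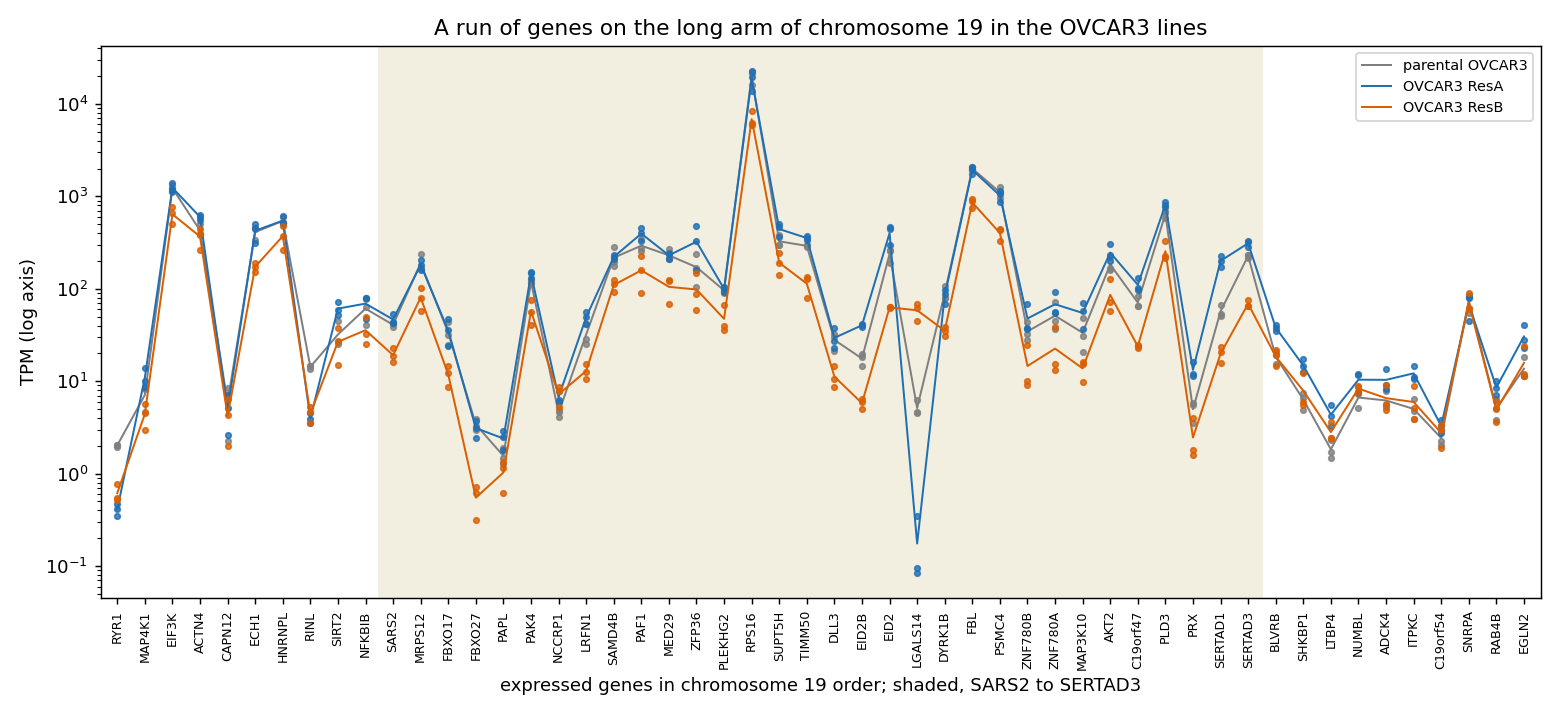
TPM (log axis) of the 32 expressed genes from SARS2 to SERTAD3 (shaded) and of 10 genes on either side, in chromosome order, with points for the libraries and lines through the means of parental OVCAR3, OVCAR3 ResA and OVCAR3 ResB. Within the shaded stretch the ResB line runs below the others (median log2 fold change -1.43 over ResA and -1.37 over the parent), except at LGALS14, where ResA drops to 0.0847 to 0.347 TPM, and at NCCRP1.

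The highest window lay at 36.3 to 39.5 Mb of chromosome 22, with 28 of 50 genes higher, 0 lower and a median of 1.16, and here it was ResA that lay further from the parent (-0.78, against 0.39 for ResB). LGALS1, a galectin of mesenchymal and tumour cells, was at 322, 859 and 574 TPM in ResB, 52.3, 70.4 and 55.8 TPM in ResA and 144 to 186 TPM in the parent (3.25 ± 0.37, adjusted p = 3.43e-16). CDC42EP1, an effector of CDC42 (2.80 ± 0.38), RAC2, a small GTPase of blood cells (2.60 ± 0.44), TOMM22, a mitochondrial import receptor (1.52 ± 0.33) and MYH9, a nonmuscle myosin heavy chain (1.04 ± 0.34) rose in the same window, MYH9 with its call kept in 3 of the 9 fits. TOMM22 was at 134, 85.3 and 155 TPM in ResB and 89.5 to 121 TPM in the parent, and ResA at 39.5 to 47.8 TPM lay below both. On chromosome 19, 3 further windows were past 0.8 in size, at 32.6 to 36.1 Mb (-0.90), 36.1 to 38.9 Mb (-0.89) and 55.7 to 58.5 Mb (-0.83). Elsewhere such windows were at 74.9 to 93.1 Mb of chromosome 9 (-0.94, with 0.65 for ResA and -0.39 for ResB over the parent), at 99.5 to 105.5 Mb of chromosome 14 (-0.83), and at 224.2 to 231.6 Mb of chromosome 1 (0.85).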

How the data were processed

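Libraries were made from poly(A) RNA and sequenced by the study, and the deposited tables hold estimated counts per gene (expected counts from salmon) and TPM, both produced by the authors with nf-core/rnaseq 3.8.1 under Nextflow 22.04.5 against GRCh38. The strand setting used in counting is not given in the sources used here. Of the 29744 genes, 7943 had no count in the 6 libraries. Expected counts were rounded to whole numbers. ResB was tested against ResA with DESeq2 1.42.0 (R 4.3.3), Wald test, median-of-ratios size factors, the replicate number as a block as in the study's methods, independent filtering and a Benjamini-Hochberg adjusted p under 0.05. Each subline was fitted against the parental line in the same way. TPM were used for levels. The deposited counts held no column of another sample.

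Genes named were the 15 largest called changes in each direction whose normalised counts averaged 100 or more and whose 3 same-numbered library pairs all pointed one way, up to 4 called members of each of 32 lists with the largest change and a mean of at least 50, list members that define a list, and the 5 annotated neighbours on each side of the 4 largest changes in each direction. Genes outside this rule are said to have been picked after their values were seen. The comparison, the members and the lists were chosen with earlier results of these data known. A fold against a line at or under 3 counts in every library is a lower bound against 3 counts. Gene positions came from RefSeq by symbol (23123 genes) or synonym (1745), and promoters are the 250 bases before the start. Some genes that the rule names are not reported here, though the counts include them. Alternatives used edgeR 4.0.16, limma 3.58.1, other size factors, filters, sample sets and left-out libraries. The DESeq2 and edgeR steps were tested on simulated counts. Intervals and standard errors cover the spread between libraries and counting error only.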

Additional observations from a re-analysis of the deposited data

Results flagged for a closer look

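At 10 of the 30 largest differences every ResA library lay on one side of all 3 parental libraries and every ResB library on the other. The opposite movement itself was not tested beyond the comparison of the sublines, whose log2 fold changes, ResB minus ResA, follow. ResB was above the parent and ResA below it at CLDN6 (12.92), HECW1 (12.66), TSHR (11.67), PI3 (10.11) and ZNF91 (9.17). The order was reversed at GPX1 (-11.31), TMPRSS15 (-9.56), XG (-8.92), CSF2RA (-8.79) and MAB21L1 (-7.27). For genes at or near 0 counts in a subline the fitted value is poorly determined and is no measure of size. The contrast of ResA with the parent passed the test at all 10 genes. The contrast of ResB with the parent did not pass at CLDN6 (adjusted p = 0.753), ZNF91 (0.0537) and MAB21L1 (0.234). It had no adjusted p at XG and CSF2RA, and it passed at the other 5 genes. The 10 genes were picked by where these same libraries lay beside the parental ones. The contrasts with the parent therefore describe them and are no separate evidence of opposite movement. At XG a parental and a ResB library each held 1 count.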

How the results depend on the processing

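The number of genes called between ResB and ResA (2202) was within 1.5 times of itself with TMM factors (2185), with a mean count of at least 10 (2149) and with no replicate block (3243). It moved further with edgeR (1419), with all 9 libraries of the family (4125) or all 33 (5043) in the fit, and with limma on log2(TPM + 1) (606) or log2(TPM + 0.1) (597). Limma with no filter on TPM called 0, where 3409 genes had an unadjusted p below 0.05, and all 29744 genes shared the adjustment. A covariate for the share of mitochondrial rRNA in place of the block, added after seeing the data, gave 5581. Leaving out libraries gave between 781 and 3812. The share of calls that were higher was 55.3%, and 52.2 to 64.8% without libraries. Of 128 genes named by the rule, 66 were called under every alternative except unfiltered limma, and no named gene reversed its sign. Of 608 list counts over the alternatives, 324 moved by over 1.5 times.

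The replicate numbers appeared to mark no shared origin: deviations of same-numbered libraries correlated at -0.14, 0.46 and -0.67. Differently numbered libraries reached 0.71 (ResA 1 with ResB 3), 0.63 (ResA 3 with ResB 2) and -0.71 (ResA 1 with ResB 2). The block thus paired replicate 3 libraries that deviated in opposite directions. The labels name no batch, so the pairing rests on the number alone. The cause of the movement between alternatives was not tested. With 3 libraries a line and standard errors near 0.4, small differences were not detectable, and 1 selection a line gives no spread between selections.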
